A study of Mus musculus with 4 samples.

Results

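Rods report the absorption of light through an enzyme cascade in the outer segment. The activated visual pigment switches on the G protein transducin, transducin removes the inhibitory subunits of a cGMP phosphodiesterase, and the fall in cGMP closes a cation channel of the outer segment membrane. The sodium, calcium and potassium exchanger goes on extruding calcium while the channel is shut, and the resulting drop in calcium helps to end the response. The transcripts of 9 genes of this cascade were examined in the eyes of mice kept in darkness or exposed to light before the same clock hour. They encode rod transducin (Gnat1, Gnb1 and Gngt1), rod phosphodiesterase (Pde6a, Pde6b and Pde6g), the rod cGMP-gated channel (Cnga1 and Cngb1) and the exchanger (Slc24a1). They were taken by gene name from the 22863 genes of the table, and all 9 had values high enough to be among the 17784 genes tested.

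The mice were of the melatonin-proficient strain C3H/f+/+, which the sample labels give as C3H. Its Pde6b, a gene of this cascade, is the functional allele, where other C3H mice lose their photoreceptors through a mutant allele, and the rd8 allele was absent too. Subjective day mice (2 samples) had been in darkness for 18 hours and were taken at circadian time 6, and objective day mice (2 samples) had seen the morning light, were then dark-adapted for 1 hour and were taken at zeitgeber time 6. The duration of darkness is that of the Methods, and another passage of the study gives a longer time for subjective day. Each sample pooled 4 eyes, which came from a female and a male animal, and held the retina, RPE, choroid and posterior sclera. The age of these animals is not given in the sources used here. The comparison asks whether exposure to light earlier in the day changed the levels of the transcripts. The values have the form of counts per gene that the authors brought to about the same library size (decimals and similar totals), which no source used here states, and so their totals (33278417 to 35236783 per sample) are not the sequencing depth, which the values do not give. In a mixed tissue of this kind, fewer rods and less of a transcript in each rod cannot be told apart.

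The labelled tissue was checked against markers of its cell types. Photoreceptor markers were abundant: the summed value of Nrl, Nr2e3, Crx, Rom1, Prph2, Rp1 and Abca4 was between 446445 and 506223 in the 4 samples. The genes that passed the test described below are named here after their values were seen, and of all genes 7.45% were called lower and 1.06% higher. Of the 7, 1 passed, Rp1 (a microtubule-associated protein of the outer segment), which was lower in objective day (log2 fold change -0.71), and their median log2 fold change was 0.11. Summed bipolar cell markers were between 50859 and 52010, with 2 of 6 called lower in objective day (Cabp5 and Isl1) and a median of -0.027. Müller glia markers summed to between 100508 and 114306, with 2 of 5 called lower (Slc1a3 and Aqp4) and a median of -0.082. RPE markers summed to between 43430 and 52897, with 1 of the 5 tested called lower (Rpe65) and a median of 0.18, and Best1 had values below 10 in every sample. Markers of tissue outside the posterior eye also had unequal sums. The sums of the cornea markers were 5331 and 5523 in subjective day, against 1617 and 2793 in objective day, with 3 of the 3 tested called lower (Krt5, Krt14 and Aldh3a1, median -1.28), while the cornea keratin Krt12 stayed below 13. Lens markers summed to 31608 and 4185 in subjective day, against 38680 and 10203 in objective day, with 0 of 4 called and a median of 0.25, and Lim2 was below 4 in every sample. Blood markers summed to between 1224 and 1376 in subjective day and between 1927 and 2177 in objective day, with 1 of 2 called higher (Hba-a1, median 0.61). With the trend with GC content described below removed, 0.907% of all genes were called. In that fit 0 of the photoreceptor, bipolar, Müller glia and RPE markers were called, and the 3 cornea markers and Hba-a1 still were. The part of these differences in the results below was not tested, beyond a rescaling to the photoreceptor markers that is given with them.

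The 9 transcripts were among the most abundant of the eye. Together they made up 3.69% and 3.34% of the total value in subjective day, against 4.10% and 3.85% in objective day, and these shares did not overlap. The summed values themselves did, with 1299443 and 1162959 in subjective day, against 1429417 and 1282365 in objective day, where sample 2 has the lowest total of the 4. Gnat1 weighed most in these sums and shares: its mean was 617155 in subjective day, against 716535 in objective day. This was the largest difference of the 9 in absolute value, and shares without Gnat1 were not computed. Gnat1 had the second highest value of all genes, and the lowest-ranked member, Cngb1, was 154th. To compare the genes with each other, each value was divided by the length of the longest protein-coding transcript. On this per-kilobase scale the mean level over the 4 samples was 286445 for Gnat1, the transducin subunit that binds GTP and carries the signal to the phosphodiesterase. It was followed by Pde6g (91849), the inhibitory subunit of phosphodiesterase, and Gnb1 (73359), the beta subunit of transducin, which many other cell types also express. The catalytic phosphodiesterase subunits Pde6b (25557) and Pde6a (21838) were close to the transducin gamma subunit Gngt1 (19248). The exchanger Slc24a1 (14744) and the channel subunits Cnga1 (8159) and Cngb1 (3194) were lowest. On this scale Cngb1 ranked 455th of all genes of known length. Neighbours in this order did not overlap over the 4 samples, except Pde6b with Pde6a and Pde6a with Gngt1. The order depends on which exons are taken as the gene: with the summed length of all annotated exons, Gnat1 was again first and Cnga1 and Cngb1 were again the last, but Gnb1 came before Pde6g, and Pde6a and Slc24a1 came before Pde6b and Gngt1.

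**Figure D1:**
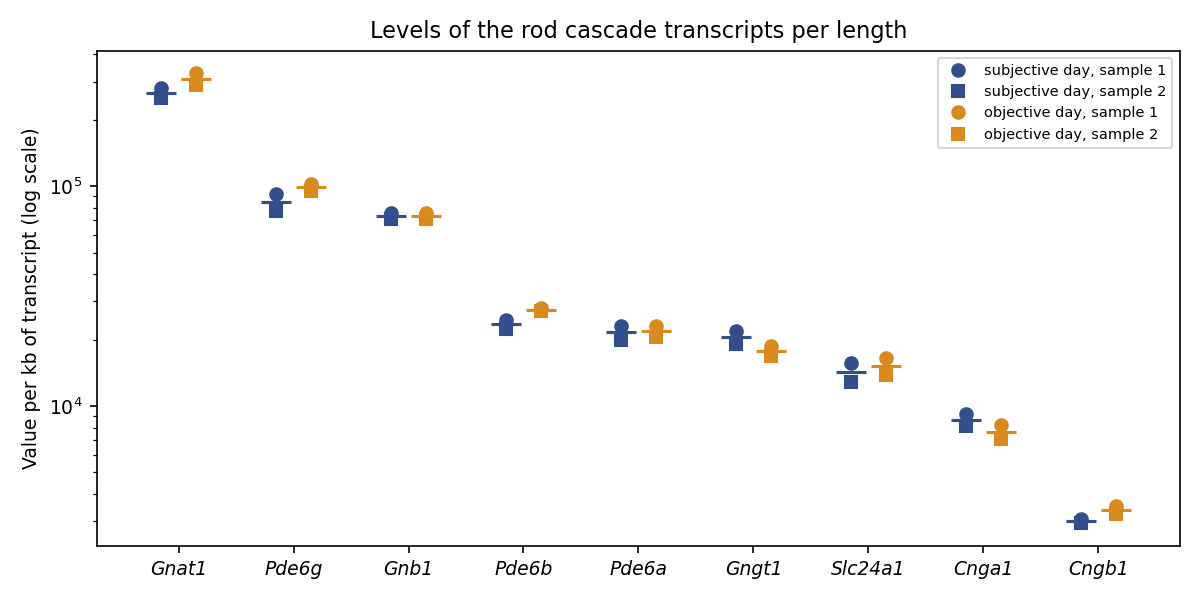
Value per kilobase of the longest protein-coding transcript (log axis) for the 9 cascade genes in each sample, with a bar at the mean of each condition (2 samples each). Gnat1 lies highest and Cngb1 lowest in all 4 samples, while Pde6b overlaps Pde6a and Pde6a overlaps Gngt1.

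No member of the cascade passed the test of a difference between objective and subjective day. At an adjusted p under 0.05 in limma's test, with adjustment over all genes tested, 0 of the 9 passed, compared with 8.51% of all genes. At an unadjusted p under 0.05 there were also 0 of 9, compared with 25.4% of all genes. Log2 fold changes, given throughout as objective over subjective day on the log2(value + 1) scale, ran from -0.20 for Gngt1 to 0.23 for Pde6g, with adjusted p values between 0.224 and 0.983. Their median was 0.096, compared with 0.015 for all genes tested. It was -0.046 without subjective day sample 2, -0.035 without objective day sample 1 and 0.22 without objective day sample 2, so the sign of this median rests on single samples. The size of change that the samples allow differed between the members: the half-width of the 95% interval ran from 0.18 on the log2 scale (Cngb1) to 0.58 (Gnat1). Both objective day samples were above both subjective day samples for 4 members (Gnat1, Pde6b, Pde6g and Cngb1), against 27.9% of all genes, and below them for 1 (Gngt1), against 28.2%.

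**Figure D2:**
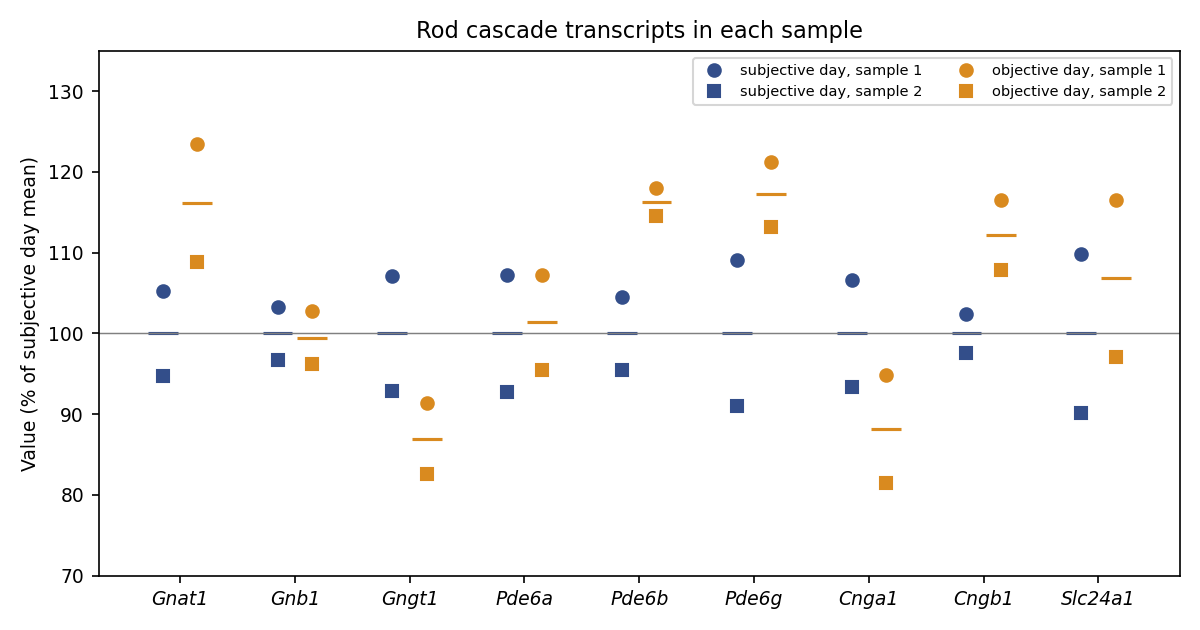
Value of each cascade gene in the 4 samples as a percentage of its subjective day mean, with a bar at the mean of each condition. Gnat1, Pde6b, Pde6g and Cngb1 lie higher in both objective day samples, Gngt1 lies lower in both, and sample 1 (circle) is above sample 2 (square) for every gene in both conditions.

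Among the transducin subunits, Gnat1 (ENSMUSG00000034837, minus strand of chromosome 9 of GRCm38, 107674474 to 107679712) had values of 649590 and 584720 in subjective day, against 761670 and 671400 in objective day. The mean was 617155 ± 45870 (SD, n = 2) against 716535 ± 63831 (SD, n = 2), and the conditions did not overlap. The log2 fold change was 0.21 (standard error, SE, 0.25, limma adjusted p = 0.637), with a 95% interval from 0.78-fold to 1.74-fold. The variance that limma shares across genes widened this error: from the 4 values of Gnat1 alone, the standard error was 0.12. Gnb1 (ENSMUSG00000029064, plus strand of chromosome 4, 155491361 to 155559269) had values of 238860 and 223540 in subjective day, against 237540 and 222330 in objective day, so that the samples of both conditions lay side by side. Its log2 fold change was -0.0079 (SE 0.16, limma adjusted p = 0.983, 95% interval from 0.77-fold to 1.28-fold). Gngt1 (ENSMUSG00000029663, plus strand of chromosome 6, 3993792 to 3997436) had values of 26081 and 22634 in subjective day, against 22262 and 20104 in objective day. The conditions were separated by a narrow gap. This gave a log2 fold change of -0.20 (SE 0.096, limma adjusted p = 0.242, 95% interval from 0.75-fold to 1.02-fold). Gnat1, Gnb1 and Gngt1 thus had fold changes above, near and below 0, none of which passed the test.

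Of the phosphodiesterase subunits, the catalytic subunit Pde6a (ENSMUSG00000024575, plus strand of chromosome 18, 61220315 to 61289924) had values of 106730 and 92304 in subjective day, against 106710 and 95021 in objective day. The samples numbered 1 were almost equal, and the log2 fold change was 0.021 (SE 0.13, limma adjusted p = 0.94, 95% interval from 0.82-fold to 1.25-fold). Pde6b (ENSMUSG00000029491, plus strand of chromosome 5, 108388391 to 108432397), the other catalytic subunit, had values of 69148 and 63150 in subjective day, against 78081 and 75760 in objective day. Its mean was 66149 ± 4241 (SD, n = 2) against 76921 ± 1641 (SD, n = 2), and the conditions did not overlap. The log2 fold change was 0.22 (SE 0.10, limma adjusted p = 0.236, 95% interval from 0.98-fold to 1.38-fold). Pde6g (ENSMUSG00000025386, minus strand of chromosome 11, 120447605 to 120453500), which holds the enzyme inactive in darkness, had values of 82991 and 69245 in subjective day, against 92298 and 86122 in objective day. Both objective day samples were again the higher ones. This gave a log2 fold change of 0.23 (SE 0.13, limma adjusted p = 0.291, 95% interval from 0.96-fold to 1.44-fold).

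The channel subunits had fold changes of opposite sign. Cnga1 (ENSMUSG00000067220, minus strand of chromosome 5, 72603696 to 72644275), the subunit that forms a channel on its own, had values of 25330 and 22177 in subjective day, against 22532 and 19356 in objective day. The conditions overlapped, since objective day sample 1 was above subjective day sample 2. The log2 fold change was -0.18 (SE 0.10, limma adjusted p = 0.314, 95% interval from 0.75-fold to 1.04-fold). Cngb1 (ENSMUSG00000031789, minus strand of chromosome 8, 95239045 to 95306585), the modulatory subunit, had values of 19077 and 18185 in subjective day, against 21715 and 20087 in objective day. Its mean was 18631 ± 631 (SD, n = 2) against 20901 ± 1151 (SD, n = 2), without overlap. This gave a log2 fold change of 0.17 (SE 0.075, limma adjusted p = 0.224, 95% interval from 0.99-fold to 1.27-fold), the smallest p of the 9. The gene Cngb1 also gives shorter transcripts that share exons with the channel subunit, and the value of the gene does not separate them. Slc24a1 (ENSMUSG00000034452, minus strand of chromosome 9, 64922861 to 64951607), the exchanger, had values of 81636 and 67004 in subjective day, against 86609 and 72185 in objective day. The difference between the samples of a single condition was larger than that between the conditions. The log2 fold change was 0.096 (SE 0.14, limma adjusted p = 0.717, 95% interval from 0.85-fold to 1.35-fold). No exon of the 9 genes overlapped an exon of another annotated gene.

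**Figure D3:**
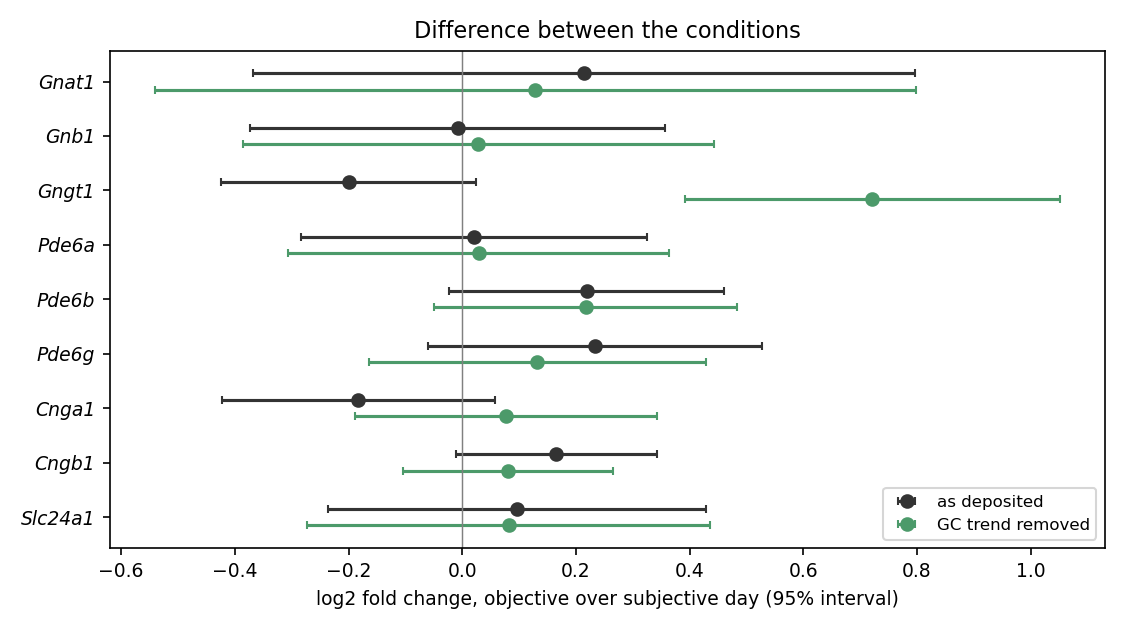
Log2 fold change of each cascade gene, objective over subjective day, with the 95% interval from limma, for the values as deposited and after removal of each sample's trend with GC content (n = 2 samples per condition). The intervals of the deposited values all include 0, and removal of the trend moves Gngt1 from -0.20 to 0.72.

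All 9 members were higher in sample 1 than in sample 2 within both conditions, which was true of 35.2% of all genes tested. In subjective day the log2 ratio of sample 1 to sample 2 was between 0.069 (Cngb1) and 0.28 (Slc24a1), with a median of 0.19, compared with a median of 0.017 over all genes. In objective day it was between 0.044 (Pde6b) and 0.26 (Slc24a1), with a median of 0.15, compared with 0.017. The photoreceptor markers moved with these differences. Their mean log2 value deviated by 0.064 and -0.063 from the average of the 4 samples in subjective day samples 1 and 2, and by 0.063 and -0.064 in objective day samples 1 and 2. In this mean Rp1 (log2 fold change -0.71) and Crx (-0.10) lay opposite to the other 5 markers (0.10 to 0.24). It was therefore nearly equal between the conditions, and a scaling without Rp1 was not run. When all values were rescaled so that this mean was equal in every sample, the fold changes were nearly unchanged but their errors were smaller. Pde6b (log2 fold change 0.22, SE 0.082), Pde6g (0.23, SE 0.086), Cngb1 (0.17, SE 0.075), Gngt1 (-0.20, SE 0.076) and Cnga1 (-0.18, SE 0.078) then had an unadjusted p under 0.05 in limma's test, 5 of the 9, compared with 19.4% of all genes under the same scaling. After adjustment over all genes 0 of the 9 members passed, with a smallest adjusted p of 0.168, compared with 5.21% of all genes under the same scaling.

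The ratio of 2 subunits within a sample does not depend on the scaling of that sample. Of 7 such ratios, 6 did not overlap between the conditions, compared with 52.8% of the ratios of all pairs of tested genes. The 7 ratios share members and are not independent. The ratio of Gnat1 to Gngt1 had the largest difference, with 24.9 and 25.8 in subjective day, against 34.2 and 33.4 in objective day. The samples of a condition differed by at most 0.053 on the log2 scale, and the conditions by 0.41. The ratio of Gnat1 to Gnb1 was 2.72 and 2.62 in subjective day, against 3.21 and 3.02 in objective day (log2 difference 0.22), and that of Gnb1 to Gngt1 was 9.16 and 9.88 in subjective day, against 10.7 and 11.1 in objective day (log2 difference 0.19). Both objective day samples were thus above both subjective day samples for each ratio of the transducin subunits, in the values as deposited.

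Within the phosphodiesterase, the ratios of Pde6a to both other subunits were lower in both objective day samples. The ratio of Pde6a to Pde6b was 1.54 and 1.46 in subjective day, against 1.37 and 1.25 in objective day (log2 difference -0.20), and that of Pde6a to Pde6g was 1.29 and 1.33 in subjective day, against 1.16 and 1.10 in objective day (log2 difference -0.21). The ratio of Pde6b to Pde6g overlapped between the conditions, with 0.833 and 0.912 in subjective day, against 0.846 and 0.88 in objective day (log2 difference -0.015). For the channel, the ratio of Cnga1 to Cngb1 was 1.33 and 1.22 in subjective day, against 1.04 and 0.964 in objective day (log2 difference -0.35, against at most 0.12 between the samples of a condition). A two-sided exact permutation test of 2 samples against 2 gave p = 0.333 for each of the 6 ratios without overlap, the smallest p that the design allows, and p = 1 for Pde6b to Pde6g. The 7 ratios are therefore given as a description.

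**Figure D4:**
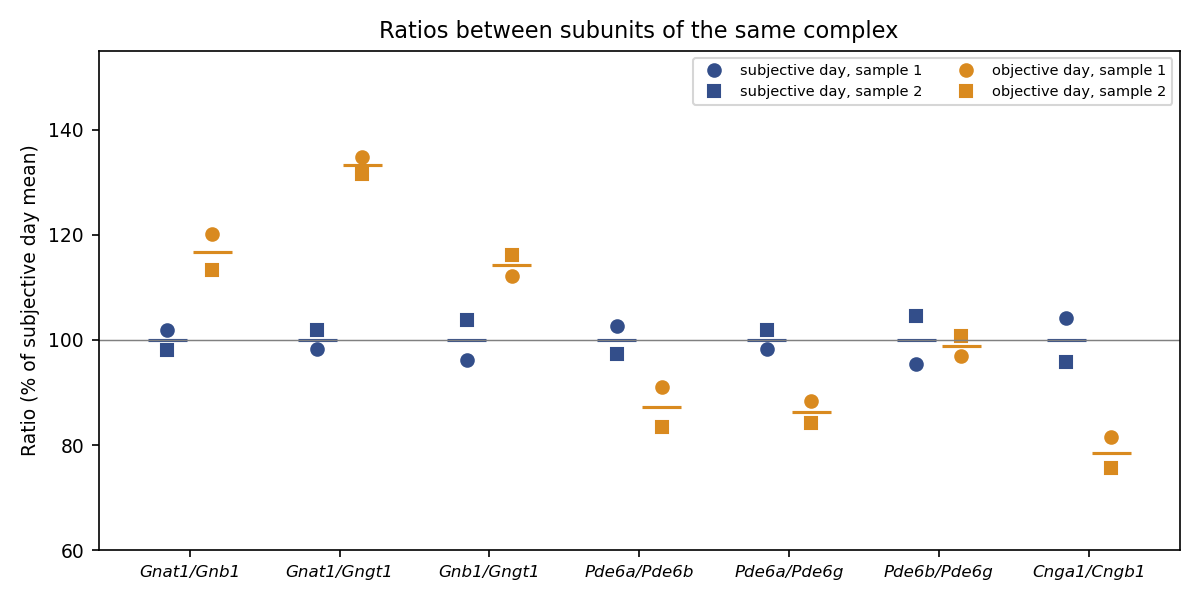
Ratio between subunits of a single complex in each sample, as a percentage of its subjective day mean, with a bar at the mean of each condition (2 samples each). Gnat1/Gngt1 lies highest in objective day and Cnga1/Cngb1 lowest, while Pde6b/Pde6g overlaps between the conditions.

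The fold changes of the 9 members went with the GC content of their transcripts. The 3 members with a negative fold change, Gngt1 (35.8% GC), Cnga1 (42.6%) and Gnb1 (48.1%), were those with the lowest GC content. Gnat1 (54.0%), Cngb1 (53.9%) and Pde6g (55.8%), the 3 with the highest, had fold changes between 0.17 and 0.23. Across the 9 genes, which come from the same 4 samples and are not independent, Pearson's r was 0.91 and Spearman's rho was 0.90. All tested genes of known GC content had a rho of 0.59. Where tested genes had 34 to 36% GC their median log2 fold change was -0.82 (76 genes), where they had 42 to 44% it was -0.21 (1379 genes), and where they had 52 to 54% it was 0.094 (1894 genes). Gngt1 was thus less negative than most genes of its GC content, whereas Cnga1 lay near the median of such genes.

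**Figure D5:**
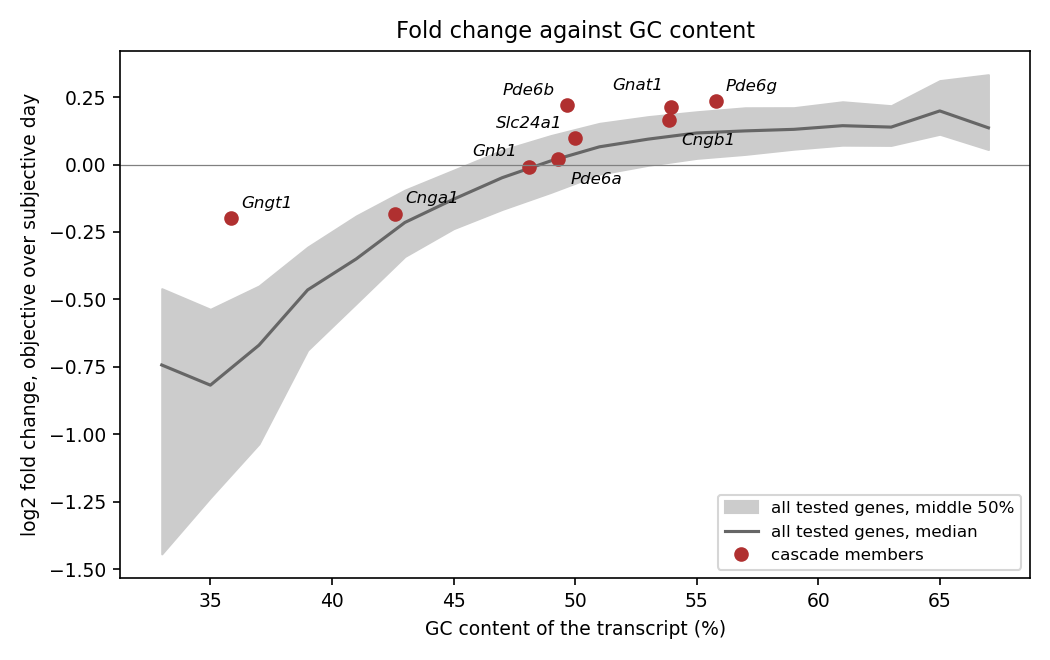
Log2 fold change, objective over subjective day, against the GC content of the longest protein-coding transcript. The line and band give the median and the middle 50% of all tested genes in steps of 2 percentage points, and the points are the 9 cascade genes, of which Gngt1, Pde6b, Gnat1 and Pde6g lie above the band.

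Removal of each sample's trend with GC content by local regression left 8 of the 9 fold changes between 0.029 and 0.22 and that of Gngt1 outside this range. As before, limma called 0 of the 9, compared with 0.907% of all genes, and 1 of the 9 (Gngt1) had an unadjusted p under 0.05, compared with 12.4%. Gnat1 moved from 0.21 to 0.13, Pde6g from 0.23 to 0.13, Cngb1 from 0.17 to 0.081 and Cnga1 from -0.18 to 0.077. Pde6b was nearly the same, with 0.22 before and after (adjusted p = 0.506), and so were Pde6a with 0.029 and Slc24a1 with 0.082. The value of Gngt1 turned from -0.20 to 0.72 (adjusted p = 0.0768, unadjusted p = 0.00107, from limma's test) after a trend of -0.92 at its GC content was subtracted. Of tested genes, 85 of the 17536 with known GC content (0.485%) had a lower GC content than Gngt1. Gngt1 thus lies at the edge of the fit, where the local regression (span 0.3) draws mainly on genes of higher GC content. The amount subtracted was larger than the median log2 fold change of -0.82 of genes with 34 to 36% GC. The log2 difference of the ratio of Cnga1 to Cngb1 went from -0.35 to -0.0036, and that of Gnat1 to Gngt1 turned from 0.41 to -0.59. That of Gnb1 to Gngt1 turned from 0.19 to -0.69, and that of Gnat1 to Gnb1 went from 0.22 to 0.10. That of Pde6a to Pde6g went from -0.21 to -0.10. That of Pde6a to Pde6b, transcripts whose GC content differs by 0.36 percentage points, was -0.19 after removal of the trend. The correction depends on GC content alone, so a ratio of transcripts this close in GC content could move little, and its small move is no test of it.

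Promoter sequences of RefSeq (GRCm38.p6) were found for 6 of the 9 members: Gnb1, Gngt1, Pde6b, Cnga1, Cngb1 and Slc24a1. The 250 bases before the RefSeq start were searched on both strands for 3 short motifs, which do not overlap each other in these promoters. TAATCC, the core bound by the photoreceptor homeodomain factor CRX, was found in 3 of the 6 (Gngt1, Cnga1 and Cngb1), compared with 6.25% of all 32851 promoters. TGCTGA, a part of the element bound by the rod factor NRL, was found in 1 (Pde6b), compared with 16.1%. CACGTG, the E-box bound by CLOCK and BMAL1, was found in 0 of the 6, compared with 6.02%. The promoters of the channel pair, which hold the same motif, and of Pde6b, which holds TGCTGA, are given here, 5′ to 3′ on the strand of the gene, with the motif in capitals. They lie at chr5:72642753-72643002 (Cnga1, minus strand), chr8:95306586-95306835 (Cngb1, minus strand) and chr5:108388123-108388372 (Pde6b, plus strand). The RefSeq start can differ from the limits of the gene given above. The window of Cnga1 lies inside those limits, in an exon of a retained-intron transcript, and most of the window of Gngt1 lies inside its first exon. Positions are counted from the RefSeq start.
Cnga1: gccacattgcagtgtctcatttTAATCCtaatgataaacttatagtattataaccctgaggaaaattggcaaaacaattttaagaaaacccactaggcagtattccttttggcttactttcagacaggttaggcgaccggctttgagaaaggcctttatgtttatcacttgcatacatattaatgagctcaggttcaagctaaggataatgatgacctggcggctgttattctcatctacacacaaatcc
Cngb1: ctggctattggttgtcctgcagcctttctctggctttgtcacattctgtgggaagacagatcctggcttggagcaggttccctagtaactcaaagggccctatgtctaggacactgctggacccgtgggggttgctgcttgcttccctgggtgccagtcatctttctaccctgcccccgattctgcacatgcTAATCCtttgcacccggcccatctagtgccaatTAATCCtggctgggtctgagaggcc
Pde6b: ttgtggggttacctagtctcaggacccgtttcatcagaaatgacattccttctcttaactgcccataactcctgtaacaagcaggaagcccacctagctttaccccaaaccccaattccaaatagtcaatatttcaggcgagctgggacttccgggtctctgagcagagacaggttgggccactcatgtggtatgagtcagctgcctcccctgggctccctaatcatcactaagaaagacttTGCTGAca
Cnga1 and Cngb1 both hold TAATCC, Cngb1 in 2 copies that begin 58 and 25 bases before the start and Cnga1 in 1 copy that begins 228 bases before it. The copy of Gngt1 is on the opposite strand, 44 to 39 bases before the start. The TGCTGA of Pde6b ends 3 bases before the start. The log2 fold changes of the 3 genes that hold TAATCC were 0.17 (Cngb1), -0.18 (Cnga1) and -0.20 (Gngt1).

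Other genes of phototransduction were compared in the same way. Among 11 genes of shutoff and recovery the median log2 fold change was 0.045, and 7 values were above 0 and 4 below. At an unadjusted p under 0.05 in limma's test there were 5 of the 11, compared with 25.4% of all genes. At the adjusted threshold 1 passed, Gucy2f, a guanylate cyclase that restores cGMP, and it was lower, compared with 7.45% of all genes. Its values were 11528 and 11990 in subjective day, against 9273 and 8721 in objective day (log2 fold change -0.39, SE 0.066, limma adjusted p = 0.0151). At 42.0% GC, it had a value of -0.086 after removal of the trend (adjusted p = 0.668). The highest fold change of this group was that of Sag, the rod arrestin, which did not pass, with values of 128910 and 108480 in subjective day, against 172930 and 164010 in objective day (log2 fold change 0.51, limma adjusted p = 0.0714). With the GC trend removed it was 0.44 (limma adjusted p = 0.296). When scaled to photoreceptor markers Sag passed (limma adjusted p = 0.0101), as did 5.21% of all genes.

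The cone counterparts of the cascade had 0 of 8 genes past the threshold in limma's test, compared with 8.51% of all genes, and 2 with an unadjusted p under 0.05, compared with 25.4%. Their median log2 fold change was 0.046, and they ran from -0.31 for Cngb3, the modulatory subunit of the cone channel, to 0.18 for Gngt2, the cone transducin gamma subunit. Set side by side with the rod gene first, the log2 fold changes were 0.21 and 0.047 for Gnat1 and Gnat2, -0.0079 and 0.14 for Gnb1 and Gnb3, and -0.20 and 0.18 for Gngt1 and Gngt2. They were 0.021 for Pde6a and 0.22 for Pde6b against -0.22 for the cone catalytic subunit Pde6c, and 0.23 and 0.073 for the inhibitory subunits Pde6g and Pde6h. For the channel they were -0.18 and 0.046 for Cnga1 and Cnga3 and 0.17 and -0.31 for Cngb1 and Cngb3, and for the exchangers 0.096 and -0.21 for Slc24a1 and Slc24a2. The cone genes beyond Cngb3 and Gngt2 are named to complete these pairs. GC content was 39.9% for Cngb3 and 52.5% for Gngt2. With the trend removed, Cngb3 turned to 0.15 (limma adjusted p = 0.614), beside 0.081 for Cngb1, and Gngt2 had 0.11, beside 0.72 for Gngt1. The differences between rod and cone genes were not tested.

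Among 7 genes that assemble or transport cascade proteins, 1 passed the threshold, compared with 8.51% of all genes, or 7.45% in its direction. Rp2h, which acts in the release of lipid-modified cargo at the cilium, was lower, with values of 463 and 462 in subjective day, against 310 and 331 in objective day (log2 fold change -0.53, SE 0.094, limma adjusted p = 0.017). With 35.9% GC, it had a value of 0.38 after removal of the trend (adjusted p = 0.225). Rd3, a carrier of guanylate cyclase, had the highest fold change of the group, with 0.33 (adjusted p = 0.0507), just outside the threshold. The median of the 7 was 0.20, and 0.12 with the GC trend removed. At an unadjusted p under 0.05 in limma's test there were 3 of the 7, compared with 25.4% of all genes.

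The genes outside the cascade whose pattern over the 4 samples lay nearest to the mean pattern of its members were Coq7, Pbx2, Erich1, Znhit3 and Mepce. Their root mean square differences from that pattern were between 0.0031 and 0.0055 on the log2 scale. The members themselves lay between 0.025 (Pde6a) and 0.13 (Gngt1) from their own mean pattern, and between 132 and 8312 other genes were nearer to it than a given member. This likeness over 4 samples is a description.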

How the data were processed

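Eyes were taken from 2 subjective day and 2 objective day samples, each pooling 4 eyes. Per the study's Methods, the authors aligned single-end reads to a mouse Ensembl release with TopHat2 (2.0.9) and Bowtie2 (2.1.0), estimated gene abundance with HTSeq and used edgeR. The filter, normalization and strand setting are not given in the sources used here. The values deposited by the authors are a signal per gene. From their decimals and similar totals they were taken as counts brought to about the same library size, which no source used here states. Since they are not raw counts, sequencing depth is unknown and no count test was run. The authors' comparison columns (log2 fold change, mean log2 CPM, p-value and adjusted p) were not used.

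log2(value + 1) of the 17784 genes with values of at least 10 in at least 2 samples was compared with limma (3.58.1, R 4.3.3), with a variance prior following the mean, Benjamini-Hochberg adjustment over all genes and a threshold of 0.05. p-values measure the spread between these samples, 2 labelled as biological replicates per condition. GC content and length came from the longest protein-coding transcript of GENCODE M21 (GRCm38), found for 98.6% of tested genes, and the trend was removed by local regression (span 0.3). In simulated data, the script was tested for recovery of known changes. The members and lists were chosen with earlier results of these data known. Named were all members, the genes of each other list past the threshold or with the lowest and highest fold change, the marker lists by count, median and sum, and the 5 genes nearest in pattern. Alternatives covered pseudocounts, filters, scalings, the variance prior, GC content, the replicate number and each sample left out. Hbb-b1 of the blood list was not analysed here, and 1 component of the cascade is not reported here.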

Additional observations from a re-analysis of the deposited data

How the results depend on the processing

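With 2 samples per condition, counts of calls and several signs moved with the processing. Of the 9 members, 0 were called under every alternative except those with the replicate block. The samples share only a number (correlation of same-numbered deviations from group means over genes, 0.32), so the replicate block is given here alone: with it 5 members were called, Pde6b, Pde6g and Cngb1 higher and Gngt1 and Cnga1 lower (adjusted p between 0.0226 and 0.0398 in limma), and with the GC trend also removed 1 was called, Gngt1 (adjusted p = 0.00288), higher. Over all genes, 1514 were called (189 higher and 1325 lower), against 3613 with the replicate block (1282 higher and 2331 lower), 1643 with upper-quartile scaling (402 higher and 1241 lower), 928 when scaled to photoreceptor markers, 0 with a constant variance prior (3586 at an unadjusted p under 0.05), 159 with the GC trend removed (91 lower and 68 higher) and 956 with both GC trend removed and replicate block. Leaving out a sample gave 664 (without objective day sample 2) to 2557 (without subjective day sample 1), and 736 without objective day sample 1. Lone samples were assumed to vary like others.

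The median fold change of the members lay between -0.046 and 0.22 when a sample was left out, and was negative without subjective day sample 2 or objective day sample 1. Under the same 2 omissions Pde6a was -0.084 and -0.063 and Slc24a1 was -0.046 and -0.035. Their ranges over the 4 omissions reached 0.13 and 0.24. Gnb1 lay between -0.056 and 0.040 over the omissions, and was 0.013 with upper-quartile scaling and 0.029 with the GC trend removed, with or without the replicate block. With the GC trend removed, with or without the replicate block, Cnga1 was 0.077 and Gngt1 0.72. Over the 4 omissions Cnga1 lay between -0.29 (without objective day sample 1) and -0.073 (without objective day sample 2), and Gngt1 between -0.30 (without subjective day sample 2) and -0.097 (without subjective day sample 1). The other 4 members had a positive sign under every alternative run, with ranges over the omissions of 0.12 to 0.31 for Gnat1 and 0.11 to 0.22 for Cngb1 (both lowest without objective day sample 1), and 0.15 to 0.28 for Pde6b and 0.10 to 0.36 for Pde6g (both lowest without subjective day sample 2). The cause of these changes was not tested.

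Of the shutoff and recovery genes 1 was called, Gucy2f, lower. There were 5 calls with the replicate block (3 higher and 2 lower), 3 with upper-quartile scaling (2 higher), 4 when scaled to photoreceptor markers (3 higher), 0 with a constant variance prior (3 at an unadjusted p under 0.05), 0 with the GC trend removed (4 unadjusted) and 4 with the replicate block as well (all higher). Without subjective day sample 1 it was 4 (3 higher), and without either objective day sample 0. Of the cone counterparts 0 were called, against 1 with the replicate block (lower) and between 0 and 2 when a sample was left out (2 without subjective day sample 1). Of the assembly and transport genes 1 was called, Rp2h, lower. There were 5 calls with the replicate block (4 higher), 2 with a pseudocount of 10, with median-of-ratios scaling, with upper-quartile scaling and when scaled to photoreceptor markers (1 in each direction), and 0 with a constant variance prior or the GC trend removed (2 unadjusted in each). With GC trend removed and replicate block 1 was called, higher. Without subjective day sample 1 it was 4 (3 higher), and without either objective day sample 0. All other alternatives kept these numbers within 1.5 times.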
